A study of Mus musculus with 12 samples.

Results

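The cyclic nucleotide phosphodiesterases examined here are 10 genes chosen by name, Pde1a, Pde1c, Pde2a, Pde3a, Pde3b, Pde4a, Pde4b, Pde4d, Pde5a and Pde8a. A row was found for 9 of the 10 among the 26921 gene rows of the count table, and all 9 were among the 11225 genes tested. The tenth, Pde2a, had no row under its GENCODE M21 identifier, and a row that shares part of its exons is described separately. The data were RNA-seq counts of left ventricular tissue, taken from mice at 16 weeks of age, with 6 WT and 6 cmGch1 KO libraries. Gch1 encodes GTP cyclohydrolase 1, which starts the synthesis of tetrahydrobiopterin, a cofactor of the nitric oxide synthases. Both genotypes carried floxed Gch1 alleles. The cmGch1 KO mice carried in addition 1 copy of a Cre transgene under the cardiomyocyte promoter α-MHC, and the WT mice were their littermates without Cre. Mice with Cre and no floxed allele were not analysed here, so the loss of Gch1 and the presence of Cre cannot be told apart. In bulk tissue, fewer cells of a type and less RNA per cell cannot be told apart either.

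Phosphodiesterases end cyclic nucleotide signals by hydrolysing cAMP, cGMP or both. In cardiomyocytes, cAMP made by adenylyl cyclases downstream of β-adrenergic receptors activates protein kinase A and raises contraction rate and force, while cGMP made by guanylyl cyclases in response to nitric oxide or natriuretic peptides activates protein kinase G. Different phosphodiesterases sit in different compartments of the cell, and some link the pathways: PDE3 is inhibited by cGMP, PDE2 is stimulated by it, and PDE1 is activated by calcium and calmodulin.

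Totals ranged from 19921398 to 37917806 counts per library. Gch1 (ENSMUSG00000037580, minus strand of chromosome 14 from 47153895 to 47189413, GRCm38) fell from 10.7 ± 0.974 cpm (SD, n = 6) in WT to 5.48 ± 0.855 cpm (SD, n = 6) in cmGch1 KO, where cpm is the library-size-scaled count after TMM normalization. The ranges of 9.27 to 12.1 and 3.93 to 6.32 cpm did not overlap (log2 fold change -0.96, Benjamini-Hochberg adjusted p = 6.88e-04, quasi-likelihood test of edgeR). The cmGch1 KO libraries 2 and 3 stood apart, with Xist between 86.7 and 99.1 cpm and 0 counts of 4 Y-linked genes, against at most 0.234 cpm of Xist in the other 10. All 6 WT libraries were among these 10, which had sums of the 4 Y-linked genes of 167 to 192 cpm. The labels give no sex. These sex-linked genes set apart libraries of cmGch1 KO alone, so what they mark is partly confounded with genotype. Without cmGch1 KO libraries 2 and 3, 38 of 11297 genes were called. Values that moved by over 1.5 times or crossed an unadjusted p of 0.05 without these 2 libraries are given beside the results. The 6 cardiomyocyte markers Myh6, Tnnt2, Tnni3, Actc1, Myl2 and Ryr2 summed to 49486 to 53114 cpm in WT and 43727 to 50734 cpm in cmGch1 KO (exact permutation test, two-sided, p = 0.00433), and 6 macrophage markers to 132 to 168 and 165 to 208 cpm (exact permutation test, two-sided, p = 0.00433). No marker of either list passed the adjusted threshold, and each marker was detected. The genotype ranges of both sums overlapped. Those of the endothelial and fibroblast sums overlapped too (exact permutation test, two-sided, p = 0.926 and 0.370). The 6 smooth muscle and pericyte markers summed to 884 to 998 cpm in WT and 910 to 1044 cpm in cmGch1 KO, and 1 of them passed, Acta2 (log2 fold change 0.66, adjusted p = 0.00672, edgeR's quasi-likelihood test, ranges not overlapping), while Tagln and Myh11 had log2 fold changes of -0.40 and -0.24.

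None of the 9 phosphodiesterases with a row differed between genotypes after adjustment over all tested genes. In edgeR's quasi-likelihood test, 0 of 9 had an adjusted p below 0.05, against 1.12% of all tested genes (0.677% higher and 0.445% lower in cmGch1 KO), and DESeq2's Wald test also gave 0 of 9, against 3.32%. At an unadjusted p below 0.05 there were 2 of 9, Pde8a, which was higher, and Pde5a, which was lower, against a background of 11.5% of tested genes, 7.01% higher and 4.51% lower. DESeq2 at the same unadjusted level gave 12.7% of all genes. No member had genotype ranges in cpm that did not overlap, against 1.87% of tested genes. The log2 fold changes lay between -0.29 and 0.26, with 5 above 0 and 4 below 0, where all tested genes split into 46.7% and 53.3%, and a median of 0.08, beside a median of -0.01 over all tested genes. Scaling by library size alone raised the median of all genes to 0.07 and that of the members to 0.15, and left 5 members above 0 and 4 below.

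**Figure D1:**
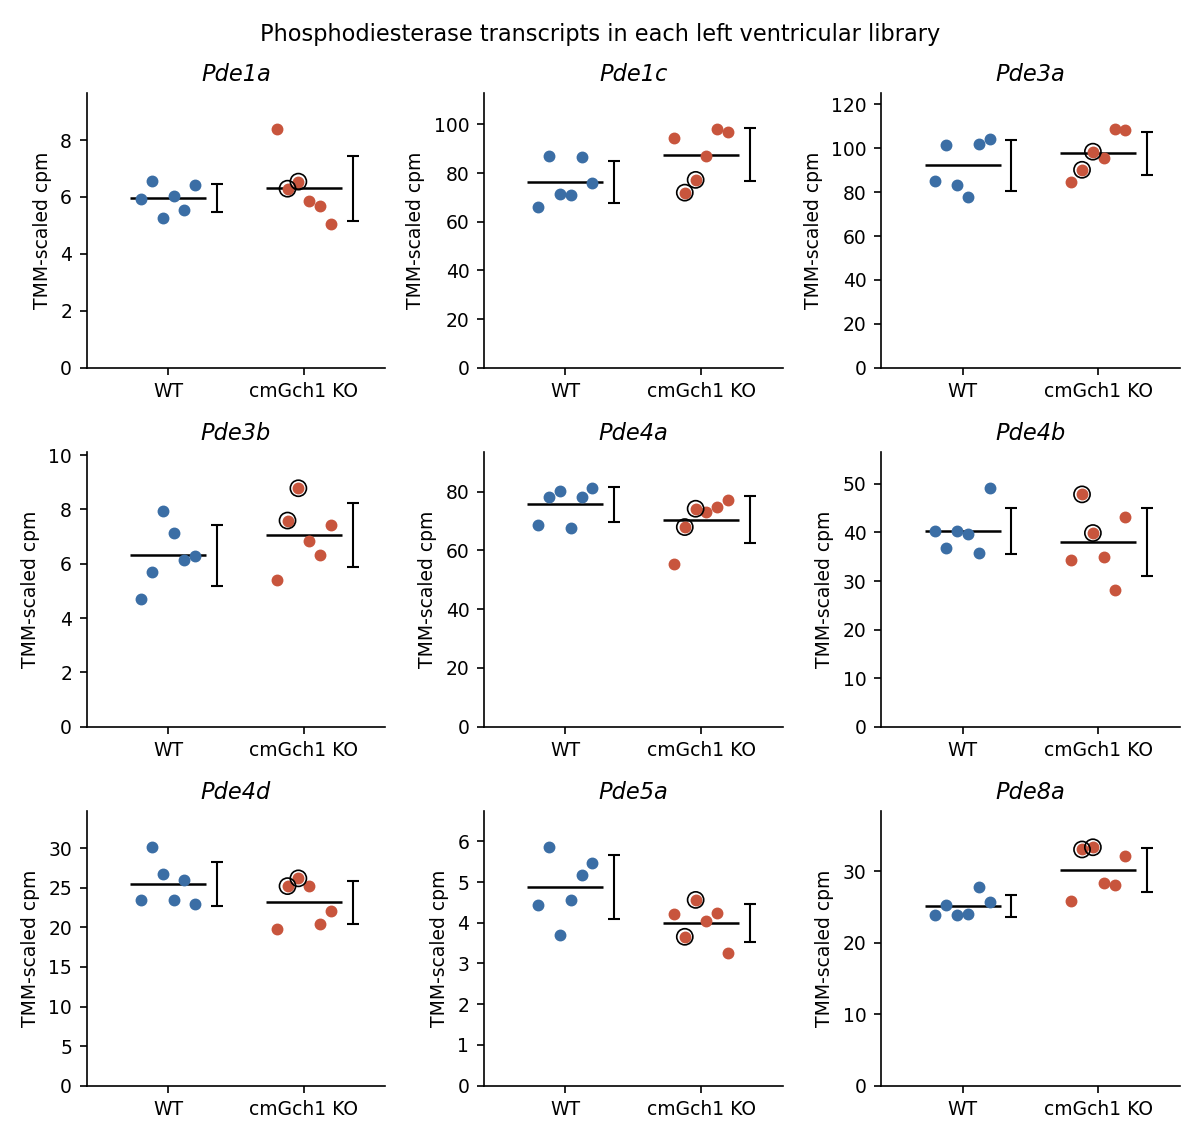
TMM-scaled cpm of the 9 phosphodiesterases in each library, by genotype (6 WT, 6 cmGch1 KO), on axes that start at 0. Points are libraries in replicate order, horizontal lines are means, bars are ± 1 SD, and black rings mark cmGch1 KO libraries 2 and 3. The genotypes overlap in every panel, and in Pde8a 5 of 6 cmGch1 KO points lie above the highest WT point.

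Pde8a encodes a cAMP-specific phosphodiesterase of high affinity. The gene (ENSMUSG00000025584) lies on the plus strand of chromosome 7 from 81213596 to 81334533 in GRCm38. The WT libraries ranged from 23.9 to 27.8 cpm (median 24.7), and the cmGch1 KO libraries from 25.8 to 33.4 cpm with a median of 30.3. Every cmGch1 KO library but replicate 1, at 25.8 cpm, was above all WT libraries, and every one was above the WT mean. The means were 25.1 ± 1.53 and 30.2 ± 3.11 cpm (SD, n = 6 each), an estimated difference of 20.1% with a 95% interval from 6.95% to 34.9%. On the log2 scale the difference was 0.26 (standard error 0.08), with an unadjusted p of 0.00442 and an adjusted p of 0.15 in edgeR's quasi-likelihood test, and an exact permutation test, two-sided, gave p = 0.00433. The highest levels were in cmGch1 KO libraries 3 and 2, at 33.4 and 33.1 cpm, followed by replicate 6 at 32.1. Without libraries 2 and 3 the log2 fold change was 0.19 (adjusted p = 0.627, edgeR's quasi-likelihood test, where 0.336% of genes were called). With 1 surrogate variable in the edgeR model it was 0.27 with an adjusted p of 0.0382, and that model called 5.67% of genes. The cardiomyocyte marker sum was lower in cmGch1 KO, although Actc1 was higher, and the macrophage marker sum was higher. The part of these sums in the Pde8a difference was not tested.

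Pde5a, the cGMP-specific phosphodiesterase that sildenafil inhibits, was the least abundant of the members with a row. The gene (ENSMUSG00000053965) lies on the plus strand of chromosome 3 from 122728947 to 122859374. WT libraries ranged from 3.70 to 5.85 cpm (median 4.87), and cmGch1 KO libraries from 3.25 to 4.56 cpm with a median of 4.13. Each cmGch1 KO library was below the WT mean, but only replicates 2 and 6 were below the lowest WT library, and that library, WT replicate 3, was well within the cmGch1 KO range. The means were 4.87 ± 0.785 and 3.997 ± 0.469 cpm (SD, n = 6 each). The estimated log2 fold change was -0.29, and it had a 95% interval from -0.56 to -0.01 (unadjusted p = 0.0415, adjusted p = 0.402, edgeR's quasi-likelihood test), and the exact permutation test, two-sided, gave p = 0.0498. Without cmGch1 KO libraries 2 and 3 it was -0.30 with an unadjusted p of 0.06 in the edgeR fit. Only 79 to 202 counts per library lay behind these values, so counting alone gives a coefficient of variation of 8.41% in WT and 9.74% in cmGch1 KO, against observed values of 16.1% and 11.7%.

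The PDE1 enzymes are activated by calcium and calmodulin and hydrolyse both cyclic nucleotides. Pde1c (ENSMUSG00000004347, minus strand of chromosome 6 from 56069804 to 56569103) ranged from 66.0 to 87.2 cpm in WT (median 73.7), and from 71.9 to 97.99 cpm in cmGch1 KO (median 90.6). The cmGch1 KO libraries 1, 5 and 6 were above all WT libraries, whereas libraries 2 and 3 were the lowest of their group. The log2 fold change of 0.20 had a 95% interval from -0.01 to 0.40 (unadjusted p = 0.0585, adjusted p = 0.459, edgeR's quasi-likelihood test), and without libraries 2 and 3 of cmGch1 KO it was 0.30 (unadjusted p = 0.00588, adjusted p = 0.313). Pde1a (ENSMUSG00000059173, minus strand of chromosome 2 from 79834453 to 80129458) ranged from 5.26 to 6.58 cpm in WT, median 5.98, and from 5.05 to 8.38 cpm in cmGch1 KO, median 6.07. Its highest value was that of cmGch1 KO replicate 1 and its lowest that of cmGch1 KO replicate 6, so the WT range lay inside the cmGch1 KO range. Its log2 fold change was 0.08 with a 95% interval from -0.18 to 0.33 (adjusted p = 0.9 in edgeR's quasi-likelihood test), and it was -0.02 without replicate 1 of cmGch1 KO.

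The PDE3 enzymes hydrolyse cAMP and are inhibited by cGMP, and PDE3A is the isoform that milrinone blocks in the heart. Pde3a (ENSMUSG00000041741, plus strand of chromosome 6 from 141249269 to 141507448) ranged from 77.8 to 104 cpm in WT (median 93.1) and from 84.6 to 109 cpm in cmGch1 KO (median 97.2). Within each genotype the libraries were spread over a similar range, and the log2 fold change was 0.08 with a 95% interval from -0.11 to 0.28 (adjusted p = 0.827, edgeR's quasi-likelihood test), and from 0.04 without WT replicate 4 to 0.12 without WT replicate 6. An antisense gene, Gm28523, covers 741 bases or 5.82% of the exon bases of Pde3a, and the strand setting of the counting is not given in the sources used here. Pde3b (ENSMUSG00000030671, plus strand of chromosome 7 from 114415281 to 114539251), the isoform prominent in fat, ranged from 4.71 to 7.92 cpm in WT (median 6.21) and from 5.397 to 8.78 cpm in cmGch1 KO (median 7.13). Only cmGch1 KO replicate 3 was above the WT range, and the log2 fold change was 0.16 with a 95% interval from -0.14 to 0.46 (adjusted p = 0.757, edgeR's quasi-likelihood test). The 2 highest cmGch1 KO values, 8.78 and 7.59 cpm, were those of libraries 3 and 2, and without these the log2 fold change was 0.05. Leaving out 1 library gave 0.09 (without WT replicate 1) to 0.23 (without WT replicate 3). The 4 adipocyte markers summed to 0.9996 to 2.89 cpm in WT and 0.221 to 3.10 cpm in cmGch1 KO.

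The PDE4 enzymes hydrolyse cAMP alone and are the targets of rolipram. Pde4a (ENSMUSG00000032177, plus strand of chromosome 9 from 21165714 to 21213248) ranged from 67.6 to 81.2 cpm in WT (median 78.3) and from 55.4 to 77.1 cpm in cmGch1 KO (median 73.7). The value of 55.4 cpm was that of cmGch1 KO replicate 1, the only one below the WT range. Pde4b (ENSMUSG00000028525, plus strand of chromosome 4 from 102087543 to 102607259) ranged from 35.8 to 49.1 cpm in WT (median 40.0) and from 28.1 to 47.8 cpm in cmGch1 KO (median 37.4). Its cmGch1 KO libraries were the more spread, with 3 of 6 below the lowest WT library and none above the highest. Pde4d (ENSMUSG00000021699, plus strand of chromosome 13 from 108449948 to 109953461), whose product associates with the ryanodine receptor and β-adrenergic receptor complexes, ranged from 23.0 to 30.1 cpm in WT (median 24.8) and from 19.8 to 26.2 cpm in cmGch1 KO (median 23.7). Here too 3 of 6 cmGch1 KO libraries were below every WT library. The log2 fold changes were -0.10 for Pde4a, -0.08 for Pde4b and -0.14 for Pde4d, with 95% intervals from -0.29 to 0.08, from -0.34 to 0.17 and from -0.34 to 0.06. Adjusted p-values were 0.738, 0.88 and 0.669 in the same order (edgeR's quasi-likelihood test). Single libraries moved these estimates, to -0.04 for Pde4a without cmGch1 KO replicate 1, to -0.01 and -0.17 for Pde4b without cmGch1 KO replicates 5 and 2, and to -0.08 for Pde4d without WT replicate 2. Without cmGch1 KO libraries 2 and 3 together, Pde4b was at -0.20 and Pde4d at -0.21. These intervals allow a fall of up to 21.0% in Pde4b and Pde4d and 17.9% in Pde4a, and a rise of up to 12.5%, 4.57% and 5.57% in the same genes.

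**Figure D2:**
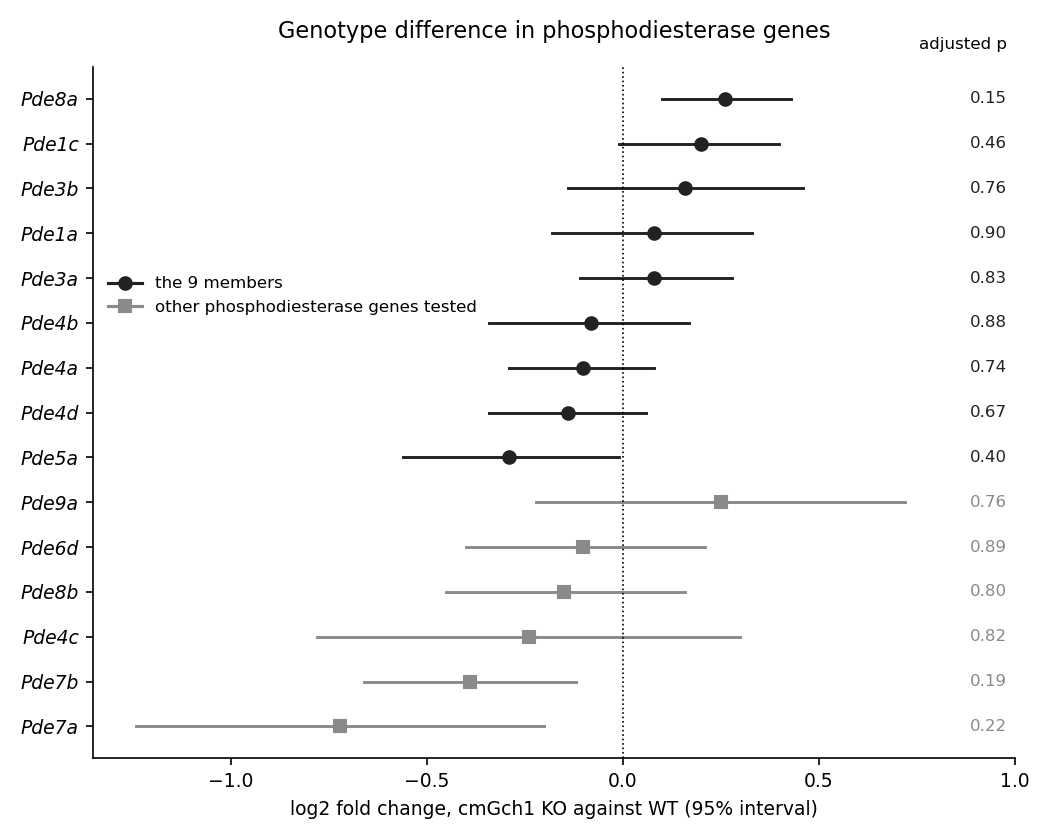
Log2 fold change in expression between cmGch1 KO and WT hearts (6 libraries each) with 95% intervals, for the 9 members (black circles) and the 6 other genes named as phosphodiesterases or their subunits that passed the filter on low counts (grey squares), with the adjusted p of the edgeR fit at the right. Intervals exclude 0 for Pde8a, Pde5a, Pde7a and Pde7b, and no adjusted p is below 0.05.

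Pde2a encodes the cGMP-stimulated phosphodiesterase. GENCODE M21 places it at 101421691 to 101512827 on chromosome 7, plus strand. The row Gm45837 (ENSMUSG00000030653, plus strand, 101410886 to 101512819), a protein-coding entry, shares 3955 bases with the exons of Pde2a, which are 95.6% of its own exon bases and 64.3% of those of Pde2a. Reads on the shared bases cannot be told apart, and the annotation used for counting is not given. The row is therefore described under its own name, and it was singled out after its values had been seen. Gm45837 ranged from 61.9 to 71.9 cpm in WT (median 68.5) and from 73.1 to 84.8 cpm in cmGch1 KO (median 82.4). The ranges did not overlap, which held for 1.87% of tested genes, and the nearest values were 71.9 cpm in WT replicate 3 and 73.1 cpm in cmGch1 KO replicate 1. The estimated log2 fold change, 0.24, had a standard error of 0.06 (95% interval from 0.11 to 0.38), an unadjusted p of 0.00188 and an adjusted p of 0.104 in edgeR's quasi-likelihood test. The exact permutation test, two-sided, gave p = 0.00216, the smallest that 6 libraries against 6 allow. Over 22 alternatives the log2 fold change lay between 0.22 and 0.32 and the adjusted p between 0.00983 and 0.292, below 0.05 in 4 of 22. These 4 were 1 surrogate variable (0.00983), DESeq2's Wald test (0.0118), library size alone in edgeR (0.0444, with 1.35% of genes called) and edgeR without replicate 1 of cmGch1 KO (0.0446), whereas the edgeR fits with no filter, without cmGch1 KO libraries 2 and 3, with a sex-linked covariate and with the replicate number as a block gave 0.292, 0.261, 0.236 and 0.0952.

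Levels of different genes were compared as cpm per kb of merged exons. On this scale the order of the mean over 12 libraries was Pde4a (9.55), Pde3a (7.46), Pde8a (6.83), Pde1c (4.08), Pde4b (3.71), Pde4d (2.03), Pde1a (1.02), Pde3b (0.734) and Pde5a (0.451). Pde4a was above Pde3a in each of the 12 libraries, Pde3a above Pde8a in 10 of 12, and Pde1c above Pde4b in 7 of 12. Thus Pde3a and Pde8a, and Pde1c and Pde4b, could not be ranked in every library, whereas the other neighbouring pairs kept their order in all 12. The lengths weigh on this order, since the merged exons of Pde1c span 20067 bases over 14 annotated transcripts and those of Pde4d 12006 bases over 20. With the longest annotated transcript as the length, Pde4a (15.7 cpm per kb) still led, and Pde1c (9.35) and Pde4b (9.10) moved above Pde3a (7.72) and Pde8a (7.27), with Pde4d at 5.78.

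Within each library, the levels per kb were expressed as percent of the sum over the 9 members, a description that does not depend on the scaling between libraries. Neither Pde2a nor Gm45837 is in this sum, so each percent is of these 9 alone. The 3 PDE4 genes together made up 42.6% to 47.7% of the sum in WT, with a mean of 44.9 ± 1.74% (SD, n = 6), and 37.6% to 42.4% in cmGch1 KO, with a mean of 40.4 ± 1.85% (SD, n = 6). The ranges did not overlap. With the longest transcript as the length, the means were 55.2% and 50.4% and 5 of 6 cmGch1 KO libraries were below the WT range. Pde8a made up 16.8% to 18.5% in WT and 19.0% to 22.3% in cmGch1 KO, with means of 17.6 ± 0.798% and 20.4 ± 1.31% (SD, n = 6 each). These ranges did not overlap for either length, nor without cmGch1 KO libraries 2 and 3, which left 19.0% to 20.2%. Pde4a alone made up 27.3% to 30.3% in WT and 22.4% to 26.7% in cmGch1 KO, and with the longest transcript 5 of 6 cmGch1 KO libraries were below the WT range. The PDE1 genes took 13.6 ± 0.783% and 14.9 ± 2.28% and the PDE3 genes 22.4 ± 1.001% and 23.2 ± 1.23% (SD, n = 6 each), with overlapping ranges. Shares of 1 sum are not independent of each other, so a rise of 1 member lowers the shares of the others. No test was run on them, and no rate of such separation over other genes was computed. In cpm, every member had overlapping genotype ranges.

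**Figure D3:**
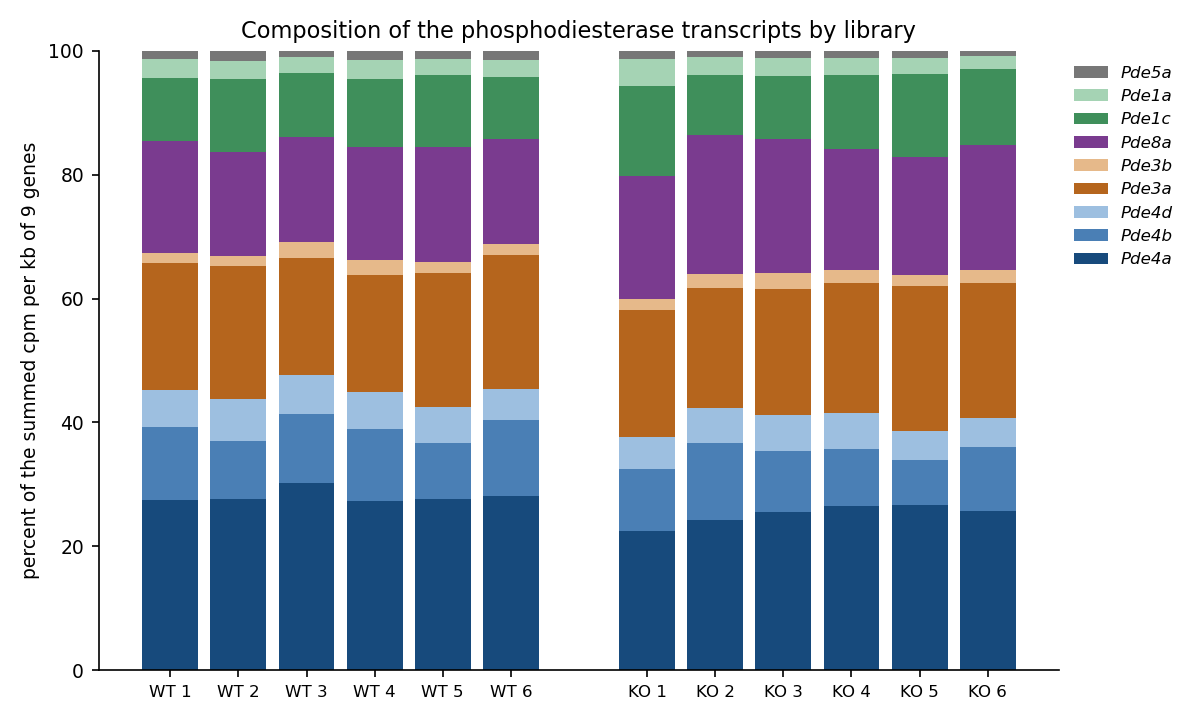
Percent of the summed level (TMM-scaled cpm per kb of merged exons) of the 9 members held by each member, in each library (6 WT at the left, 6 cmGch1 KO at the right). The 3 PDE4 genes, in blue at the bottom, reach 42.6% to 47.7% in WT and 37.6% to 42.4% in cmGch1 KO, and the Pde8a segment, in purple, is wider in each cmGch1 KO library than in each WT library.

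Ratios of the levels per kb within a family overlapped between genotypes. Pde3a was 10.8 ± 2.46 times Pde3b in WT and 10.1 ± 1.62 times in cmGch1 KO. Pde4a was 4.69 ± 0.481 and 4.81 ± 0.639 times Pde4d, and Pde4b was 1.83 ± 0.365 and 1.87 ± 0.289 times Pde4d. Pde1c was 3.85 ± 0.488 times Pde1a in WT and 4.28 ± 1.01 times in cmGch1 KO (SD, n = 6 throughout). In cmGch1 KO libraries 5 and 6 the last ratio was 5.16 and 5.75, above the highest WT value of 4.66.

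The members whose own share of the sum had ranges without overlap on merged exon lengths were Pde8a and Pde4a, of which Pde8a alone had so with the longest transcript, and the 250 bases before a RefSeq transcription start of each are shown (GRCm38.p6). CREB, the factor that protein kinase A activates, binds the cAMP response element TGACGTCA or its half-site TGACG. Half-sites on either strand are in capitals. The Pde8a window is chr7:81213015-81213264, plus strand, upstream of the GENCODE M21 start of the gene, and the Pde4a window is chr9:21165464-21165713, plus strand.
Pde8a: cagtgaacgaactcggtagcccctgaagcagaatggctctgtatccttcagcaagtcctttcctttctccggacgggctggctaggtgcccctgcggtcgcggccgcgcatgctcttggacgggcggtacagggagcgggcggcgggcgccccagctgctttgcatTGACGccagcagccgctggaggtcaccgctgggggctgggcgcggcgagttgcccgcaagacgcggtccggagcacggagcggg
Pde4a: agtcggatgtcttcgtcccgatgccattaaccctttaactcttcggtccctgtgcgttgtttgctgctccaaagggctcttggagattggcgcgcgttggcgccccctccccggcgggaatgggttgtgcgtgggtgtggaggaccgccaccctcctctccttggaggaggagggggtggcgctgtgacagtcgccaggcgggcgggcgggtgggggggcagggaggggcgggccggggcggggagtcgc
The Pde8a window holds 1 half-site 84 bases before the start, and the Pde4a window shown holds none, while both have a GC content of 68.8%. RefSeq windows were matched for 8 of the 10 members, 22 windows in all, since most members have several starts. The full element was in 0 of the 22 windows, against 1.55% of all 32851 windows of this length. The half-site was in 1 window each of Pde1a, Pde4a, Pde4b and Pde8a, which is 4 of 22, against 17.8% of all windows. A match is a description of letters and says nothing of binding in these hearts.

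The other genes named as phosphodiesterases or their subunits comprised 14, of which 6 passed the filter, and 0 of these 6 were called. The 2 PDE7 genes, which encode cAMP-specific enzymes, had an unadjusted p below 0.05 and the largest differences of the 6. Pde7a had 23.3 to 50.9 cpm in WT and 12.5 to 35.1 cpm in cmGch1 KO, with the lowest values in cmGch1 KO libraries 2 and 3 and 4 of 6 below the WT range. Its log2 fold change was -0.72 (standard error 0.24, unadjusted p = 0.0102, adjusted p = 0.219, edgeR's quasi-likelihood test), and -0.46 without those libraries (adjusted p = 0.733). Pde7b had 22.5 to 29.3 cpm in WT and 17.0 to 28.6 cpm in cmGch1 KO, where 5 of 6 libraries were below the WT range and replicate 4, at 28.6 cpm, was not. Its log2 fold change was -0.39 (standard error 0.13, unadjusted p = 0.00752, adjusted p = 0.192, edgeR's quasi-likelihood test), and without replicate 4 it was -0.51 (adjusted p = 0.0248). Pde4c, Pde6d, Pde8b and Pde9a had log2 fold changes of -0.24, -0.10, -0.15 and 0.25 with adjusted p-values of 0.763 to 0.893 (edgeR's quasi-likelihood test), and Pde4c was at -0.09 without libraries 2 and 3. Pde8b, the paralog of Pde8a, ranged from 4.08 to 5.69 cpm in WT and from 3.21 to 5.14 cpm in cmGch1 KO, and the difference between the paralogs in their response was not tested.

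Of 87 other genes of the cyclic nucleotide pathway, these 14 included, 65 passed the filter and 0 had an adjusted p below 0.05. At an unadjusted p below 0.05, 3 were higher and 6 lower in cmGch1 KO, which is 13.8% of the 65 against 11.5% of all tested genes, and their median log2 fold change was -0.05. The median turned to 0.02 when libraries were scaled by size alone, and the split of 22 above and 43 below 0 turned to 41 and 24, so no direction is given for the list.

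Upstream of cAMP, 7 of 10 adenylyl cyclases were tested. Adcy5, a main cyclase of the adult cardiomyocyte, had 105 to 125 cpm in WT and 114 to 163 cpm in cmGch1 KO. Only cmGch1 KO replicate 1, at 114 cpm, was within the WT range, and the other 5 were at or above 142 cpm. Its log2 fold change was 0.36 (SE 0.09, unadjusted p = 0.00103, adjusted p = 0.0712, edgeR's quasi-likelihood test), the lowest adjusted p of the 65. Without replicate 1 of cmGch1 KO it was 0.42 (adjusted p = 0.00436 in the same test), and without libraries 2 and 3 it was 0.32 (adjusted p = 0.384). Adcy1, a calmodulin-stimulated cyclase best known from neurons, had 3.01 to 4.43 cpm in WT and 0.694 to 3.31 cpm in cmGch1 KO, lowest in libraries 2 and 3, with a log2 fold change of -0.80 (adjusted p = 0.193, edgeR's quasi-likelihood test) and of -0.49 without those libraries (adjusted p = 0.32). None of the 4 tested guanylyl cyclases, subunits of the nitric oxide receptor or natriuretic peptide receptors, had an unadjusted p below 0.05, with log2 fold changes from -0.12 to 0.15 and adjusted p of 0.634 to 0.965 in the same edgeR fit. The 4 G protein alpha subunits lay between -0.23 and 0.15, and 0 of 4 passed at the unadjusted level.

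Downstream, 1 of 6 tested subunits and inhibitors of protein kinase A passed at the unadjusted level. This was Pkia, an inhibitor of the catalytic subunit, which had 293 to 432 cpm in WT and 203 to 406 cpm in cmGch1 KO. Again cmGch1 KO replicate 1, at 406 cpm, was alone in the WT range, while the other 5 were at or below 251 cpm. In log2 terms Pkia differed by -0.51 (SE 0.16, adjusted p = 0.169, edgeR's quasi-likelihood test), by -0.69 without replicate 1 of cmGch1 KO (adjusted p = 0.00331) and by -0.43 without libraries 2 and 3 (adjusted p = 0.594). Among 6 genes of protein kinase G, EPAC and Popeye proteins, 3 passed at the unadjusted level. Rapgef4, which encodes the cAMP-activated exchange factor EPAC2, was lower with a log2 fold change of -0.27, and the cAMP-binding membrane proteins Bves and Popdc2 were higher with 0.23 and 0.26 in estimate (adjusted p = 0.212, 0.249 and 0.311, edgeR's quasi-likelihood test). Rapgef4 was at 35.2 to 40.0 cpm in WT and 26.1 to 37.7 cpm in cmGch1 KO, where replicate 1 was again the library within the WT range, and without it the log2 fold change was -0.33 (adjusted p = 0.0491, edgeR's quasi-likelihood test). Without libraries 2 and 3 it was -0.18, with an unadjusted p of 0.0648 and an adjusted p of 0.743 in the same test. Bves was at 40.6 to 44.0 and 43.7 to 61.5 cpm, and Popdc2 at 490.5 to 666 and 564 to 854 cpm, with 5 of 6 and 4 of 6 cmGch1 KO libraries above the WT range. Without cmGch1 KO libraries 2 and 3, where both were high, the log2 fold changes were 0.12 and 0.16 (adjusted p = 0.815 and 0.858, edgeR's quasi-likelihood test). Hcn4, a pacemaker channel opened by cAMP, had a log2 fold change of -0.32 with 7.86 to 12.98 cpm in WT and 6.66 to 10.3 cpm in cmGch1 KO (adjusted p = 0.372, edgeR's quasi-likelihood test), and of -0.27 without libraries 2 and 3 (unadjusted p = 0.125). The 3 atrial markers Myl7, Myl4 and Sln summed to 7.62 to 283 cpm in WT and 45.1 to 187 cpm in cmGch1 KO. Their part in the Hcn4 difference was not tested. The 11 anchoring proteins, which hold phosphodiesterases and protein kinase A in place, lay between -0.16 and 0.01, the 9 tested partners of phosphodiesterases between -0.12 and 0.19, and the 7 cAMP response factors between -0.12 and 0.11, and none of these passed at the unadjusted level.

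**Figure D4:**
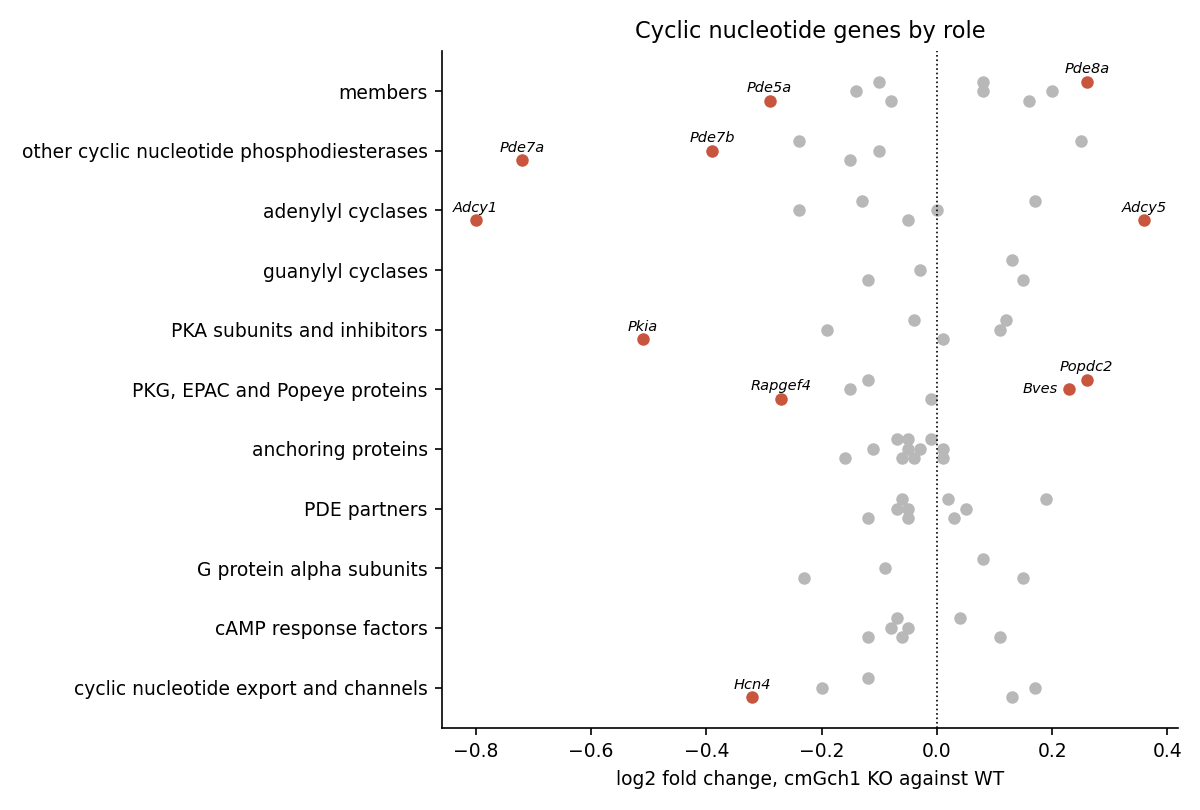
Log2 fold change in expression between cmGch1 KO and WT hearts (horizontal axis) for the 9 members and the 65 other tested genes of the cyclic nucleotide pathway, grouped by role (vertical axis, with points offset within a group for legibility). Red points are genes with an unadjusted p below 0.05 in edgeR's quasi-likelihood test, 2 members and 9 others, and grey points are the rest. No gene has an adjusted p below 0.05.

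The genes whose levels followed each member most closely were ranked by Pearson's r of log2 cpm over the 12 libraries after centring within genotype. The 12 points share library depth and composition, and the genes named for each member are among the top 2 of 11225, so r is a description. Pde8a was followed by Azin1 (r = 0.935, Spearman's rho 0.832), an antizyme inhibitor, and Adrb1 (r = 0.915, rho 0.937), the β1-adrenergic receptor. Without the 2 libraries farthest from the median of the member, r was 0.892 and 0.849, and for the other pairs named it lay between 0.669 and 0.963, lowest for Pde1a with Mzt2 (0.669) and Mfsd4b4 (0.774) and for Pde3b with Naa16 (0.797). Azin1 itself was higher in cmGch1 KO (log2 fold change 0.46, adjusted p = 0.0262, edgeR's quasi-likelihood test), whereas Adrb1 had a log2 fold change of 0.01 (adjusted p = 0.99 in the same test). Pde3a was followed by Atxn1 (r = 0.976) and Jmjd1c (0.972), Pde4a by Agap1 (0.969) and Atn1 (0.959), and Pde4b by Npdc1 (0.962) and Rassf1 (0.955). Pde4d was followed by Trim72 (r = 0.942), a membrane repair protein of muscle, and Prdm11 (0.936). Pde1c was followed by AW549877 (r = 0.964), Pde1a by Mfsd4b4 (0.941) and Mzt2 (0.861), Pde3b by Naa16 (0.907) and Cbfb (0.888), and Pde5a by Pign (0.929) and Plxnc1 (0.887). Among the members themselves, Pde3a and Pde4a varied together most (r = 0.757), and Pde1a and Pde4a in opposite directions (r = -0.70).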

How the data were processed

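Left ventricular RNA of 6 WT and 6 cmGch1 KO mice was sequenced as stranded paired-end libraries, with the mouse as the experimental unit. The authors aligned reads with HISAT2, used Picard and counted with featureCounts, and the submitters' processing notes name GRCm38 and SAMtools. The strand setting, annotation and tool versions are not given in the sources used here. The deposited raw counts per Ensembl gene were used as such. A second table deposited by the authors holds normalized values on a log2-like scale and served only as an alternative, tested with limma 3.58.1. Of 26921 identifiers, 26545 (98.6%) were found in GENCODE M21, which gave symbols and positions.

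Counts were tested with edgeR 4.0.16 in R 4.3.3 (TMM, a filter of cpm above 3 in 6 or more libraries, quasi-likelihood test on genotype, Benjamini-Hochberg FDR threshold 0.05 over 11225 genes), after a check on simulated data. Single genes were also tested by exact permutation of TMM-scaled cpm over all 924 splits, two-sided. DESeq2 1.42.0 and sva 3.50.0 were used for alternatives. Log2 cpm for correlations had a prior count of 2. Depth was 19921398 to 37917806 counts. The intervals given for differences between genotypes came from the edgeR quasi-likelihood fit and include variation between libraries. Only the coefficients of variation given for counting alone are limited to counting error.

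The members, gene lists and tests were chosen with earlier results of these data known. Genes named are the members, Gch1, other phosphodiesterases past the filter, other pathway genes with an unadjusted p below 0.05, and the 2 genes most like each member, of which 1 is not reported here. Gm45837, Hcn3 and Pde11a are marked as chosen after their values were seen. The same holds for Acta2, Tagln, Myh11, Actc1 and Myh6, which were singled out of the marker lists. Pde1b, Pde10a and the PDE6 genes below the filter are named as the rest of their list. Promoter windows came from the RefSeq table on GRCm38.p6.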

Additional observations from a re-analysis of the deposited data

Results flagged for a closer look

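In each genotype of 6 libraries, 58 groups of values of named genes were examined for a highest or lowest library that stood apart from the rest, and 3 were found. Chance alone gives about 1 in 20 groups. WT replicate 6 had Pde4b at 49.1 cpm, against at most 40.4 in the other 5 WT libraries. The cmGch1 KO replicate 4 had Pde7b at 28.64 cpm, against at most 21.2 in the other 5, and without this library the log2 fold change of Pde7b was -0.51 with an adjusted p of 0.0248 in edgeR's quasi-likelihood test. The cmGch1 KO replicate 1 had Pkia at 405.8 cpm, against at most 251.4 in the other 5, and without it the log2 fold change of Pkia was -0.69 with an adjusted p of 0.00331 in the same test. For Pde7b and Pkia the library left out was picked by its value of the same gene and lay within the WT range. The fits of Adcy5 and Rapgef4 without cmGch1 KO replicate 1 also left out the library within the WT range. A lower adjusted p after such a choice is a description.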

How the results depend on the processing

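Over 22 alternatives per gene, the direction of the members held for 8 of 9, and Pde1a turned to -0.02 without cmGch1 KO replicate 1 (-0.02 to 0.13 over single libraries left out). The number of members called stayed at 0 except with 1 surrogate variable, where it was 1, Pde8a at 0.27 (FDR 0.0382, against 0.0382 to 0.627 over all alternatives). Pde8a had an unadjusted p below 0.05 in 22 of 22 alternatives, Pde5a in 12 and Pde1c in 8. Of the other pathway genes, in place of 0, library size alone called 1, Adcy5 (higher). The fit with no filter called 1, Hcn3 (lower, means of 0.357 cpm in WT and 0.0921 in cmGch1 KO, chosen after its values were seen). DESeq2 called 2, Adcy5 (1 higher) and Pkia (1 lower). With 1 surrogate variable 4 were called, 2 higher (Adcy5, Popdc2) and 2 lower (Pkia, Pde7a). Leaving out 1 library gave 0 to 3 calls, 0 to 1 higher and 0 to 2 lower, with 3 without cmGch1 KO replicate 1 (Adcy5 higher, Pkia and Rapgef4 lower) and 1 without replicate 4 (Pde7b lower). The fit without replicate 1 called 1.92% of all genes and that without replicate 4 0.984%, against 1.12% with all libraries, and the fit with no filter 0.572%. The fit with a sex-linked covariate called 64 genes, against 126 without it, and among these 64 were 0 members and 0 other pathway genes. The log2 fold change with this covariate was 0.04 for Pde3b and -0.18 for Rapgef4 (unadjusted p = 0.0509, edgeR). The cause was not tested.

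Same-numbered libraries of the 2 genotypes did not all deviate together (r from -0.13 to 0.68), and only numbers 1, 5 and 6 had their own number as closest partner, so the numbers were not taken as pairs. The fit with the replicate block called 0 members and 3 other pathway genes, 1 higher (Adcy5) and 2 lower (Pkia, Pde7a), and 188 genes in all, against 126.

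With the longest transcript as length, levels in cpm per kb were 1.44 for Pde1a, 9.35 for Pde1c, 1.02 for Pde3b, 15.7 for Pde4a, 9.1 for Pde4b, 5.78 for Pde4d and 0.583 for Pde5a. Ratios in WT and cmGch1 KO were 8.05 and 7.54 for Pde3a to Pde3b, 2.7 and 2.77 for Pde4a to Pde4d, and 6.25 and 6.94 for Pde1c to Pde1a. Percent shares were 17.6 and 19.7 for PDE1, 14.7 and 15.4 for PDE3, 55.2 and 50.4 for PDE4, 1.11 and 0.905 for Pde5a, and 11.5 and 13.6 for Pde8a. These moves follow from the length used. Depth limits Pde5a, Pde1a and Pde3b most, with 79 to 269 counts per library.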

Other observations

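Pde11a, a phosphodiesterase of both cyclic nucleotides on the minus strand of chromosome 2 (75989141 to 76338774), was below the filter on low counts and is named after its values were seen. It had 1.77 to 5.18 cpm in WT and 0.231 to 1.71 cpm in cmGch1 KO, so the ranges did not overlap, although the highest cmGch1 KO value was just under the lowest WT value. Of the tested genes, 1.87% had ranges without overlap, and no such share was computed for genes below the filter. The means were 3.26 ± 1.36 and 1.07 ± 0.69 cpm (SD, n = 6 each), with 57 to 164 and 5 to 61 counts per library. In the edgeR fit without a filter, the log2 fold change was -1.56 (standard error 0.37, unadjusted p = 5.23e-04, adjusted p = 0.0762). The lowest values, 0.231 and 0.387 cpm, were those of cmGch1 KO libraries 2 and 3, and the other 4 were at 0.777 to 1.71 cpm.

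Of the other phosphodiesterase genes below the filter, the WT and cmGch1 KO means were 2.13 and 2.05 cpm for Pde1b and 1.95 and 2.35 cpm for Pde10a, while the genes of the retinal PDE6 subunits Pde6a, Pde6b, Pde6c, Pde6g and Pde6h were each at a mean of at most 0.463 cpm.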
